A study of Mus musculus with 12 samples.

Results

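Liver expression was compared between Atf7-/- mice conceived by in vitro fertilization (IVF) and wild-type (WT) mice conceived by natural mating, a contrast in which the loss of ATF7 and conception by IVF are combined. All samples titled Atf7KO_IVF and WT_NaturalMating were taken, 3 arrays each and 6 of the 12 arrays of the series, and all 34760 probe sets of the deposited table were tested. The 6 other arrays came from WT IVF and Atf7-/- natural mating mice, 3 each, and differ from WT natural mating in a single factor. The mice were males on the C57BL6/JJmsSlc background, aged 4 weeks in the sample records and 3 weeks in the article, and the 3 livers of a group came from offspring of different mothers or recipients, 1 liver per array. WT pups had WT parents and Atf7-/- pups had Atf7-/- parents, so the genotype of the parents differs along with that of the pups. IVF pups came from superovulated females, fertilization in human tubal fluid medium and transfer of embryos into ICR recipients, none of which the natural mating pups had, and these steps cannot be told apart from fertilization itself. Neither the hour of dissection nor the feeding state is given in the sources used here.

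ATF7 is a transcription factor of the ATF/CREB family that binds the cAMP response element. It is known mainly as a repressor that works together with H3K9 methyltransferases and is switched off by stress-activated kinases. The liver runs a daily clock in which ARNTL (BMAL1) and CLOCK bind E-box sequences and switch on the Per, Cry, Nr1d and Dbp genes, whose products feed back on them, so that Arntl and Dbp peak at opposite times of the day. The liver is also the main site of cholesterol, fatty acid, heme and bile acid synthesis, which the SREBP, PPARα and growth hormone systems control.

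Values are log2 expression values made by robust multiarray averaging (RMA), and a difference of 1 is a doubling of signal. Calls needed both a limma p of 0.05 or less after Benjamini-Hochberg adjustment over all probe sets and a log2 fold change of 0.6 or more in size. These thresholds follow the methods of the study. The median value per array was 6.3 to 6.34 for WT natural mating and 6.26 to 6.31 for Atf7-/- IVF. The hepatocyte markers averaged 13.21 to 13.26 per array in WT natural mating and 13.20 to 13.28 in Atf7-/- IVF as the labelled tissue would have them, and those of pancreas and skeletal muscle stayed between 5.67 and 5.92. The deposited values hold no measure of background, so a group near or below that level is not shown to be above background, and its differences are given with no fold. On the Atf7-/- natural mating arrays 4 probe sets without a gene symbol read 6.43 to 7.10, below the 8.30 to 9.37 of the 9 other arrays. Over all probe sets, that group lay more than 1 log2 unit below the 9 other arrays at 33 and above them at 13. The same counts were 6 and 7 for WT natural mating, 1 and 1 for WT IVF and 0 and 0 for Atf7-/- IVF. The cause was not tested. Counts against WT natural mating and WT IVF are also given without the Atf7-/- natural mating arrays. The differences from Atf7-/- natural mating and the interaction cannot be fitted without those arrays and are not given without them. In bulk liver, fewer cells of a type and less RNA per cell cannot be told apart.

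Atf7, the gene inactivated in the mutant, was lower in Atf7-/- IVF liver at both of its probe sets. Probe set 10433032 read 8.94, 8.81 and 8.58 in WT natural mating and 5.34, 5.68 and 5.52 in Atf7-/- IVF. Every mutant array lay below every WT natural mating array, a difference of -3.26 (SE 0.19, adjusted p = 5.57e-05 by limma), and the mutant values were at or below the level of the pancreas and muscle markers. This probe set was also called lower in WT IVF, which read 8.18, 8.38 and 7.56, at -0.74 from WT natural mating (SE 0.19, limma adjusted p = 0.0384). In Atf7-/- natural mating it had -2.82. Probe set 10433034 went from 9.02 ± 0.22 (SD, n = 3) to 8.38 ± 0.08, which is -0.64 (SE 0.11, limma adjusted p = 0.0106), and this call ended without WT natural mating replicate 1 or Atf7-/- IVF replicate 3 (fall of 0.52 to 0.60). In the single-factor groups probe set 10433034 had -0.26 (WT IVF) and -0.34 (Atf7-/- natural mating), neither of them called. Where the probe sets lie relative to the deleted part was not analysed here. Of 23 genes for ATF7, its relatives, partners and kinases, 0 rose and 2 fell. The second was Atf3, a stress-induced member of the family, at -0.72 (SE 0.12, adjusted p = 0.0083). Atf2, the closest relative, had -0.01 (adjusted p = 0.983), and Creb5 had -0.21 (adjusted p = 0.395).

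Between Atf7-/- IVF and WT natural mating liver 1092 probe sets were called, 3.14% of those tested, of which 661 (1.9%) were higher and 431 (1.24%) lower in Atf7-/- IVF. All counts of called genes in a gene list are to be read against these shares, and no list was tested against them. The higher ones carried 439 distinct gene symbols and had a median log2 fold change of 0.793, and 149 of them reached 1. The lower ones carried 207 distinct symbols and had a median of -0.866, and 152 of them reached -1. A gene symbol was missing for 42.9% of the lower and 21.8% of the higher probe sets, against 33.9% of all. In all 1092 the lowest array of the higher group exceeded the highest array of the lower group, against 22.6% of all probe sets. A lack of overlap in a called gene, where stated below, therefore adds nothing to its call. The median over all probe sets was -0.02. The counts depended on single arrays. They were 352 higher and 240 lower without Atf7-/- IVF replicate 2, 376 and 243 without Atf7-/- IVF replicate 3, and 479 and 240 without WT natural mating replicate 2, whereas 237 higher and 152 lower calls were kept without each of the 6 arrays in turn. A fit of the 6 arrays alone, with fewer residual degrees of freedom, gave 121 and 94, and a fit without the 3 Atf7-/- natural mating arrays gave 469 and 311.

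**Figure D1:**
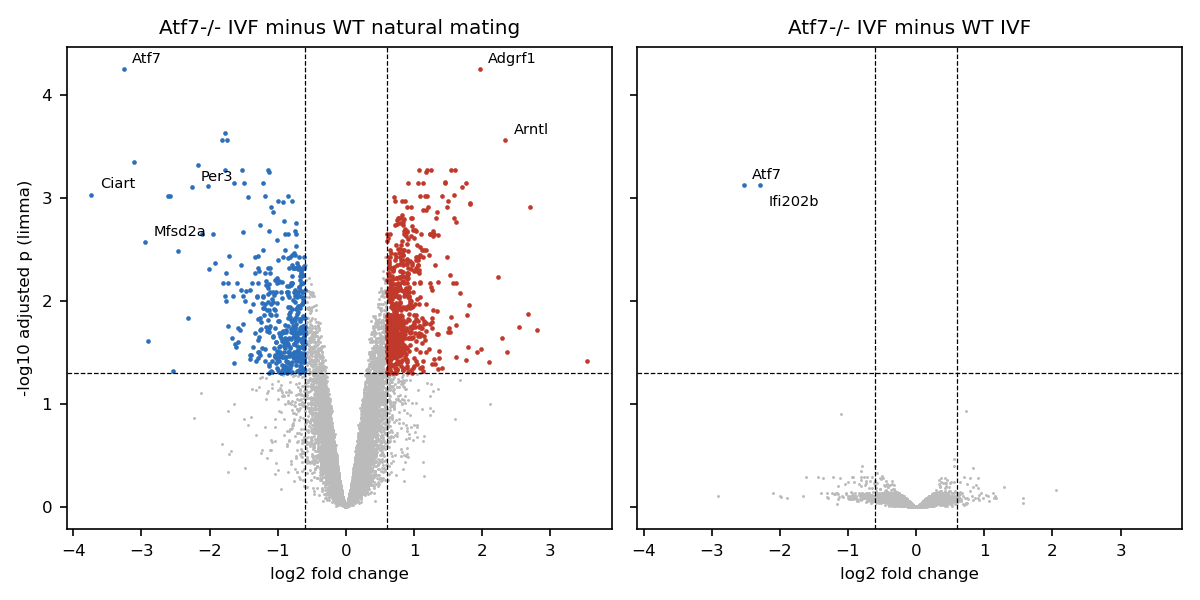
Log2 fold change against -log10 of the limma adjusted p for Atf7-/- IVF minus WT natural mating (left) and minus WT IVF (right), for probe sets with a gene symbol and all called ones. Dashed lines mark the thresholds, red points are called higher and blue points called lower; 1092 probe sets pass on the left and 2, Atf7 and Ifi202b, on the right.

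How far the combined difference departs from each single factor was tested directly. Against WT IVF, 2 probe sets (0.00575%) were called in Atf7-/- IVF liver, both lower, although 2126 (6.12%) had an unadjusted p under 0.05. One was Atf7, at -2.53 (SE 0.19, adjusted p = 0.000752), and the other was Ifi202b, an interferon-inducible gene of the Ifi200 family of DNA sensors. Ifi202b read 5.36, 5.24 and 5.18 in WT IVF but 3.07, 3.20 and 2.66 in Atf7-/- IVF, which overlapped the 2.81, 3.14 and 3.16 of WT natural mating. All of these values lay below the level of the pancreas and muscle markers, so Ifi202b is not shown to be above background in any of these groups. Its difference was -2.29 (SE 0.16, adjusted p = 0.000752) from WT IVF and -0.06 (SE 0.16, adjusted p = 0.883) from WT natural mating. Without Atf7-/- IVF replicate 2 the count against WT IVF was 6, with Cyp3a16, Pbk, Rrm2 and Scd1 added. It was 5 without WT IVF replicate 2, and 4 without Atf7-/- IVF replicate 1 or without Atf7-/- natural mating replicate 3. Without all 3 Atf7-/- natural mating arrays it was 3, with Dusp1 added. A missing call does not show that values were alike, but for 770 of the 1092 probe sets the 95% interval of the difference between Atf7-/- IVF and WT IVF lay within 0.6 either way. The same share over all probe sets was not computed, and the 1092 were chosen with the same Atf7-/- IVF arrays. The count of 770 therefore does not set them apart from other probe sets. Against Atf7-/- natural mating, 2356 probe sets (6.78%) were called, 1136 (3.27%) higher and 1220 (3.51%) lower. The combined log2 difference departed from the sum of the 2 single-factor differences, the interaction, at 2148 probe sets (6.18%), above the sum at 945 (2.72%) and below it at 1203 (3.46%).

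The largest rises included genes of sulfation, the clock, cytochromes P450 and transport. Sult2a3, a sulfotransferase gene, read 6.01, 4.20 and 3.59 in WT natural mating and 6.65, 7.27 and 7.50 in Atf7-/- IVF and so rose by 2.54 on the log2 scale (SE 0.51, adjusted p = 0.0178). The WT arrays were widely spread but did not reach the mutant ones. Cd209f, a C-type lectin gene, read 5.28, 4.84 and 4.30 against 6.46, 7.66 and 7.0 and rose by 2.23 (SE 0.34, adjusted p = 0.00585). Adgrf1, an adhesion G protein-coupled receptor gene, read 6.68, 6.59 and 6.87 against 8.55, 8.92 and 8.57 and rose by 1.97 (SE 0.12, adjusted p = 5.57e-05). Slc44a1, a choline transporter gene, rose by 1.81 (SE 0.32, adjusted p = 0.0109), with 0.84 at its other probe set. Mmd2 rose by 1.77 (SE 0.33, adjusted p = 0.0137) and Chic1 by 1.83 (SE 0.20, adjusted p = 0.00111). Atp5md, a small subunit of the mitochondrial ATP synthase, rose at each of its 3 probe sets, by 1.2 to 1.76, and Sumo2, a ubiquitin-like modifier gene, at each of its 4, by 0.87 to 1.68. The call of Sult2a3 ended without WT natural mating replicate 2 or Atf7-/- IVF replicate 2 or 3 (adjusted p from 0.0631 to 0.0677) and that of Mmd2 without Atf7-/- IVF replicate 3 (adjusted p = 0.0553).

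Slc34a2, a sodium phosphate cotransporter gene, read 5.09, 5.16 and 4.90 in WT natural mating and 6.53, 8.66 and 6.26 in Atf7-/- IVF. Cyp3a16, a P450 gene typical of females and of young mice, read 4.25, 4.49 and 4.57 against 5.87, 8.22 and 6.10. In both, Atf7-/- IVF replicate 2 stood more than 2 log2 units above the other mutant arrays, and the groups did not overlap. Slc34a2 rose by 2.10 (SE 0.52, adjusted p = 0.0388), and Cyp3a16 rose by 2.3 (SE 0.49, adjusted p = 0.0226). The call of Slc34a2 ended on leaving out any 1 of 8 arrays, among them each WT natural mating array (adjusted p from 0.0505 to 0.0941), and that of Cyp3a16 without WT natural mating replicate 1 or 2 (adjusted p from 0.0577 to 0.063). Without the 3 Atf7-/- natural mating arrays neither was called (adjusted p = 0.0855 and 0.0565).

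The 12 largest falls were, outside the clock, those of Atf7 itself, Mfsd2a, Cyp4a12a, Ces1f, Nrg4, Cyp2c38, Gstt2 and the vault RNA gene Vaultrc5, and, in the clock, those of Ciart, Dbp, Per3 and Usp2. Mfsd2a, a transporter of lysophosphatidylcholine, read 9.48, 10.24 and 9.73 in WT natural mating and 7.39, 6.34 and 6.89 in Atf7-/- IVF, and fell by 2.94 (SE 0.38, adjusted p = 0.00266), or 7.67-fold. It was lower in Atf7-/- IVF than in Atf7-/- natural mating by 3.69, and the combined fall went 2.05 beyond the sum of the single factors. Ces1f, a carboxylesterase gene, read 11.11, 10.78 and 11.32 against 8.26, 8.56 and 8.56 and fell by 2.61 (SE 0.27, adjusted p = 0.000958). Nrg4, a secreted growth factor of the EGF family, read 8.33, 8.70 and 7.56 against 5.67, 5.19 and 5.97 and fell by 2.59 (SE 0.27, adjusted p = 0.000958). In all of these the groups were apart, which the choice of the largest falls required. Gstt2, a glutathione S-transferase gene, fell by 2.10 (SE 0.26, adjusted p = 0.00224). Cyp4a12a, a fatty acid hydroxylase of male liver, read 5.62, 6.76 and 8.93 against 3.99, 4.27 and 4.34, with WT natural mating replicate 3 far above the others, and fell by 2.90 (SE 0.63, adjusted p = 0.0242). Cyp2c38 fell by 2.54 (SE 0.66, adjusted p = 0.0478). The call of Cyp4a12a ended without WT natural mating replicate 2 or any Atf7-/- IVF array (adjusted p from 0.0526 to 0.0742) and that of Cyp2c38 on leaving out any 1 of 10 arrays (adjusted p up to 0.125). Probes of the Sult2a, Cyp2c, Cyp3a and Cyp4a families can share sequence between near-identical members, so these values are uncertain as to the member.

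**Figure D2:**
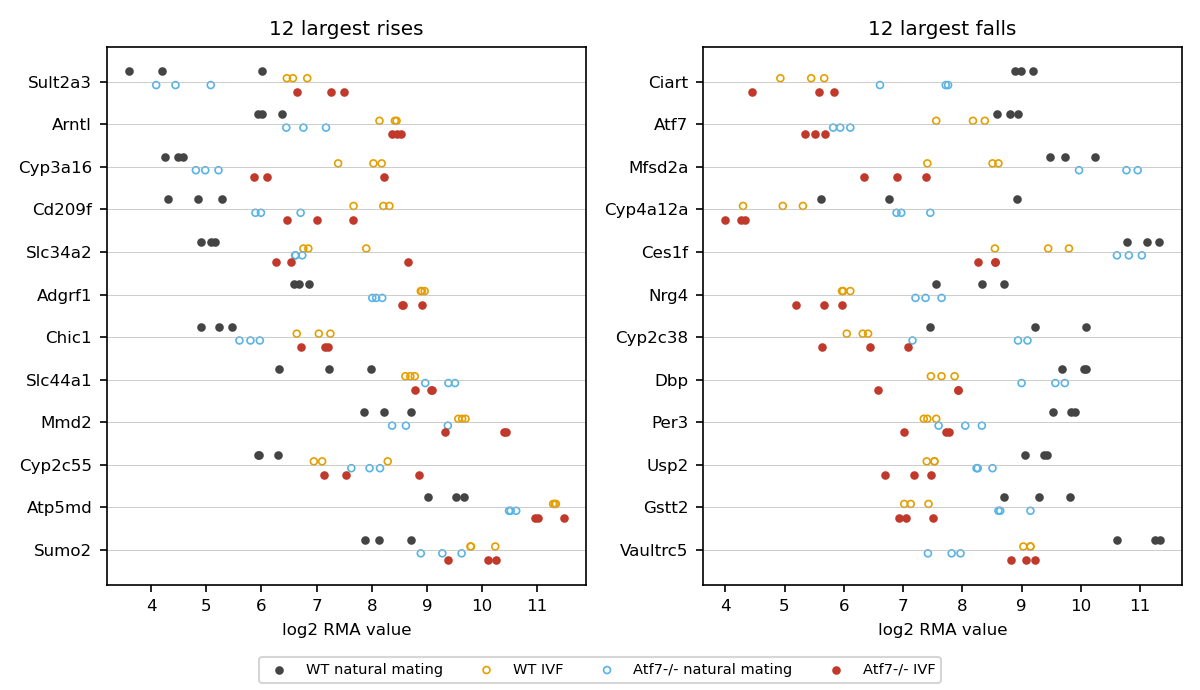
Log2 RMA values of the 12 genes with the largest rises (left) and falls (right) in Atf7-/- IVF against WT natural mating, each point 1 array. Filled points are the groups compared, which by the choice of genes do not overlap for any gene shown, and open points are the single-factor groups. For Arntl, Ciart, Dbp and Nrg4 the open WT IVF points lie near the filled Atf7-/- IVF points.

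Arntl and Clock rose, and 11 of the 15 measured clock genes in phase with Dbp fell. Arntl, the activator, read 6.01, 5.94 and 6.38 in WT natural mating and 8.36, 8.46 and 8.53 in Atf7-/- IVF, a rise of 2.34 (SE 0.18, adjusted p = 0.000272). Its partner Clock rose by 0.85 (SE 0.11, adjusted p = 0.00224). Ciart, a circadian repressor gene, read 8.99, 9.19 and 8.89 against 5.58, 4.45 and 5.83, the largest fall among named genes, at -3.73 (SE 0.38, adjusted p = 0.000923), with the mutant values at or below the level of the pancreas and muscle markers, and its other probe set fell by 3.11. Dbp, a transcription factor that drives clock output, read 10.09, 10.05 and 9.69 against 7.93, 6.57 and 7.92 and fell by 2.47 (SE 0.33, adjusted p = 0.00324). No Atf7-/- IVF array came within 1 unit of a WT natural mating array in any of these 3 genes. Of 15 measured genes that share the phase of Dbp and the REV-ERB genes, 0 rose and 11 fell, with a median of -1.15 against -0.02 over all probe sets, and 8 of the 11 calls were kept without each of the 6 arrays. Per1, Per2 and Per3, which encode the period repressors, fell by 1.82 (SE 0.14, adjusted p = 0.000272), 1.49 (adjusted p = 0.000721) and 2.26 (SE 0.22, adjusted p = 0.000778), and Usp2, a deubiquitinase gene, fell by 2.17 (SE 0.18, adjusted p = 0.000479). Tef, Cry2, Nr1d2, Wee1 and Bhlhe40 also fell, by 0.75 to 1.37, while Nr1d1 had -0.96 (adjusted p = 0.0729). The 5 measured genes of the Arntl phase held 2 rises, those of Arntl and Clock, and 1 fall. Gys2, which encodes liver glycogen synthase, fell by 1.08 (SE 0.19, adjusted p = 0.00953). Cry1 and Nfil3 had 0.40 and 0.82 (adjusted p = 0.273 and 0.0981).

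The single-factor groups, which share arrays with the contrast above, are given beside these values. Arntl differed from WT natural mating by 2.23 in WT IVF and by 0.68 in Atf7-/- natural mating, and Ciart by -3.67 and -1.66. Dbp differed by -2.28 and -0.51. Per1 differed by -1.18 in WT IVF (SE 0.14) and 0.16 in Atf7-/- natural mating (SE 0.14, adjusted p = 0.52), so that its combined fall went beyond the sum by 0.81, and Per3 differed by -2.32 and -1.77, so that its combined fall was 1.83 short of the sum. Both departures were called. Against Atf7-/- natural mating 8 of the 15 Dbp-phase genes were lower in Atf7-/- IVF and 0 higher, and against WT IVF 0 of the 15 were called either way. For Arntl the 95% interval of the difference between Atf7-/- IVF and WT IVF was -0.28 to 0.50, and for Dbp it was -0.92 to 0.54. Bhlhe40, a repressor gene, had -1.05 from WT IVF without passing the test. Among the Atf7-/- IVF mice, replicate 2 had the lowest mean over the Dbp-phase genes, 7.18 against 7.66 and 7.58, where the WT natural mating mice had 8.94, 8.92 and 8.84.

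**Figure D3:**
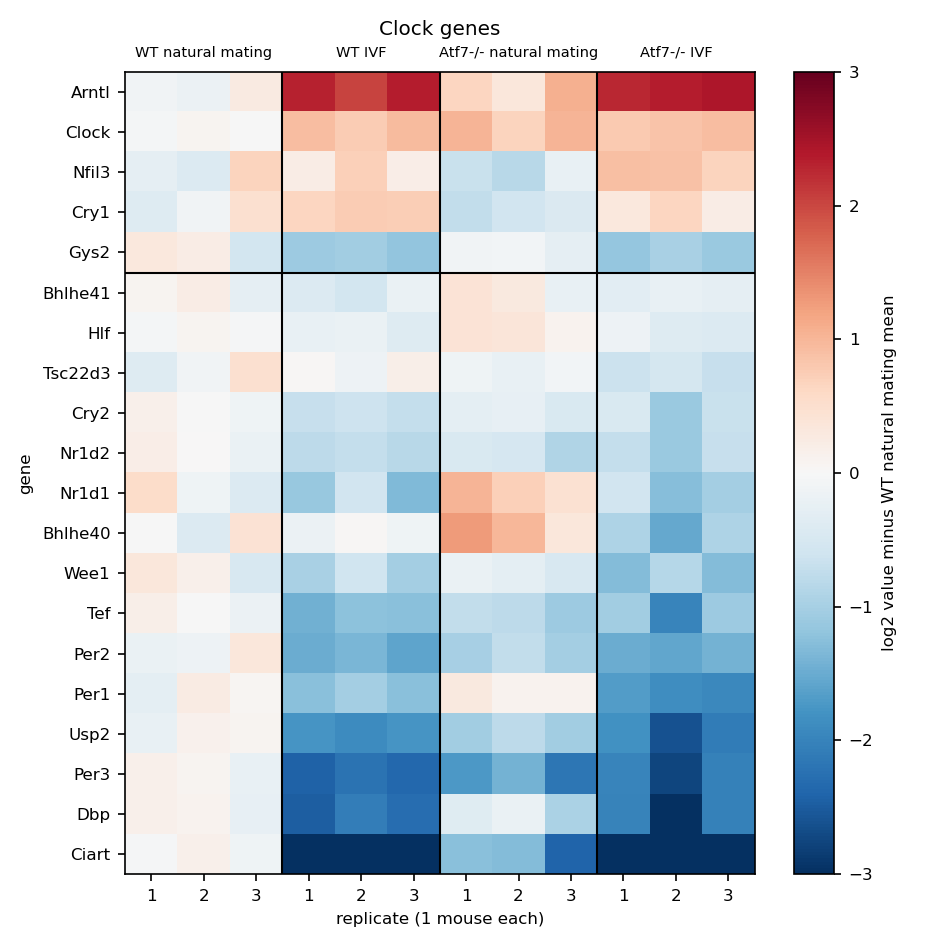
Log2 value of each clock gene minus its WT natural mating mean, 1 column per array (mouse) and 1 row per gene, with the genes in phase with Arntl above the line and those in phase with Dbp below it. Colours are capped at 3 units either way. Arntl and Clock are red in all 3 Atf7-/- IVF columns, and the rows from Cry2 to Ciart are blue in all 3.

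The promoters of 2 clock genes that fell are shown because they hold the E-box that the ARNTL and CLOCK proteins bind. The windows run from 250 bases before to 50 after the start of a RefSeq transcript on GRCm38.p6, at chr3:95882179-95882478 (minus strand) for Ciart and chr11:69098699-69098998 (plus strand) for Per1, written in the direction of the gene with the E-box CACGTG in capitals. The motif reads the same on both strands. With bases before the start counted as negative, it begins at -116, -58 and -44 in Ciart and at -166 in Per1.
Ciart: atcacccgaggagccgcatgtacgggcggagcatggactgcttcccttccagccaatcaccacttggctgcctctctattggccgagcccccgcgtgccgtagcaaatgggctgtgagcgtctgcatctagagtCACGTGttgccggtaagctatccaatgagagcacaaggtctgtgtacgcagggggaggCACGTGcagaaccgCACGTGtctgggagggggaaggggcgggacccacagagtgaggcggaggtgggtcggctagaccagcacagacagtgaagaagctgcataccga
Per1: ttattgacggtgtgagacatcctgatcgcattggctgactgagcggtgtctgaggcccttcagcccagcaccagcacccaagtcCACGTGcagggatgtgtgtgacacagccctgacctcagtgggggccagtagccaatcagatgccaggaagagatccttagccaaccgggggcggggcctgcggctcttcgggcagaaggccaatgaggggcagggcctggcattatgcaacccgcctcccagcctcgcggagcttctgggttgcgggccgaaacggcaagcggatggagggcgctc
The E-box was found in the windows of 5 of 16 clock genes with a window, in 24 of 151 genes called lower (15.9%), in 30 of 341 called higher (8.8%) and in 9.5% of measured genes. The 5 were Ciart, Per1, Cry1, Tef and Bhlhe41, of which Cry1 and Bhlhe41 did not pass the test. A match is a description of these letters and not a binding site shown by these data.

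The cAMP response element, the motif of the ATF/CREB family, was searched as the palindrome TGACGTCA. It was found in 9 of 341 genes called higher (2.64%), in 6 of 151 called lower (3.97%) and in 2.72% of measured genes, and in 0 of the 87 named genes with a window. The example shown is Dusp1, a phosphatase of stress-activated kinases and the called gene with this motif that changed most, which was chosen after its value was seen. Dusp1 fell by 1.47 (SE 0.26, adjusted p = 0.00992). Its window lies at chr17:26508423-26508722 on the minus strand (GRCm38.p6), with the response element in capitals at -143 and an E-box, left in lower case, shortly after it.
Dusp1: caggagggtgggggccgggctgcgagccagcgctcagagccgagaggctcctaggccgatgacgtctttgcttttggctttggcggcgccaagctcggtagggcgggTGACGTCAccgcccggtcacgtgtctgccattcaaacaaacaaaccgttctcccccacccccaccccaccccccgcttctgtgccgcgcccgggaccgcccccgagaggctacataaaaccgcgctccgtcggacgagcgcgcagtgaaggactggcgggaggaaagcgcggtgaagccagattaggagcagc

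No gene of sterol synthesis was called between Atf7-/- IVF and WT natural mating liver. Of 7 genes of the mevalonate pathway and 11 from squalene to cholesterol, 0 were called either way, with medians of 0.015 and -0.174. Sqle, the squalene epoxidase, read 7.38, 7.68 and 9.44 in WT natural mating and 6.65, 8.97 and 6.58 in Atf7-/- IVF. The groups overlapped, with WT natural mating replicate 3 and Atf7-/- IVF replicate 2 above the rest of their groups, and the difference was -0.77 (SE 0.65, adjusted p = 0.559). Nsdhl, a later enzyme, had -0.17 (SE 0.39, adjusted p = 0.856). The 2 probe sets of Idi1, the isopentenyl diphosphate isomerase, had -0.47 (SE 0.36) and 0.58 (SE 0.39), with adjusted p = 0.508 and 0.441. Srebf2, the transcription factor that drives the pathway, read 8.36, 8.43 and 8.48 against 8.60, 8.56 and 8.33, a difference of 0.07 (SE 0.09, adjusted p = 0.697) with a 95% interval of -0.12 to 0.27. Insig2, an SREBP retention factor of the endoplasmic reticulum, was the 1 called gene of 9 SREBP regulators, with a rise of 1.24 (SE 0.20, adjusted p = 0.00671).

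The departure from the sum of single factors was below 0 and called for 8 of the 11 squalene to cholesterol genes and 5 of the 7 mevalonate genes, against 3.46% of all probe sets. It was -3.83 for Sqle, -2.95 for Nsdhl, -2.78 for the brighter Idi1 probe set and -1.01 for Srebf2. Of the 11 squalene to cholesterol genes, 2 were called higher with IVF in WT and 8 with ATF7 loss. Sqle was called in neither (adjusted p = 0.233 and 0.114 by limma). The other Idi1 probe set had -1.51, which did not pass (adjusted p = 0.105). In Srebf2 the single factors gave 0.33 with IVF in WT and 0.75 with ATF7 loss, while Atf7-/- IVF lay 0.68 below Atf7-/- natural mating. Fabp5, a fatty acid binding protein gene, Akr1c18, a hydroxysteroid dehydrogenase gene, and Rdh11, a retinol dehydrogenase gene, had departures of -3.55, -4.79 and -2.92, with combined differences of -0.53, -0.46 and 0.09 that did not pass (adjusted p from 0.364 to 0.921). The mean over the squalene to cholesterol genes was 9.80 in Atf7-/- IVF replicate 2 and 8.95 and 8.94 in the other 2 mutant arrays, and 9.19, 9.28 and 9.83 in WT natural mating. Without that mutant array the list had 0 calls and a median of -0.30.

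Few fatty acid genes were called, most differences were below 0, and the spread within groups was wide. Of all probe sets 1.9% were called higher and 1.24% lower. Among the 21 fatty acid synthesis and desaturation genes measured, 1 was called, the desaturase gene Fads2 at -0.67 (SE 0.11, adjusted p = 0.00883), and the median was -0.485. Thrsp, a lipogenic regulator, had -2.23 (adjusted p = 0.137), Elovl6, a fatty acid elongase, -1.82 (adjusted p = 0.245) and Fasn, the fatty acid synthase, -0.99 (adjusted p = 0.434). The list mean was 9.40, 10.38 and 9.30 in the Atf7-/- IVF mice and 10.11, 10.15 and 10.82 in WT natural mating, so that Atf7-/- IVF replicate 2 lay within the WT range and the other 2 mutant mice below it. Of 36 PPARα targets and fatty acid oxidation genes, 0 rose and 6 fell, with a median of -0.42. These included the acyl-CoA thioesterases Acot3 at -1.55 (SE 0.32, adjusted p = 0.0192) and Acot1 at -1.12 (SE 0.28, adjusted p = 0.0405), the peroxisomal thiolases Acaa1b at -1.21 (SE 0.22, adjusted p = 0.0137) and Acaa1a at -0.996 (SE 0.23, adjusted p = 0.0316), and Pex11a, a peroxisome division gene, at -0.93 (SE 0.19, adjusted p = 0.0198). The list mean was 9.95 to 9.96 in Atf7-/- IVF and 10.69, 10.55 and 10.07 in WT natural mating, with no overlap. None of the 6 calls was kept without each of the 6 arrays, and all 5 named here ended without Atf7-/- IVF replicate 2 or 3 (adjusted p from 0.0511 to 0.129 over all arrays that ended one). Fads2 was not called when WT natural mating replicate 2 or Atf7-/- IVF replicate 2 was left out (falls of 0.56 to 0.59).

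**Figure D4:**
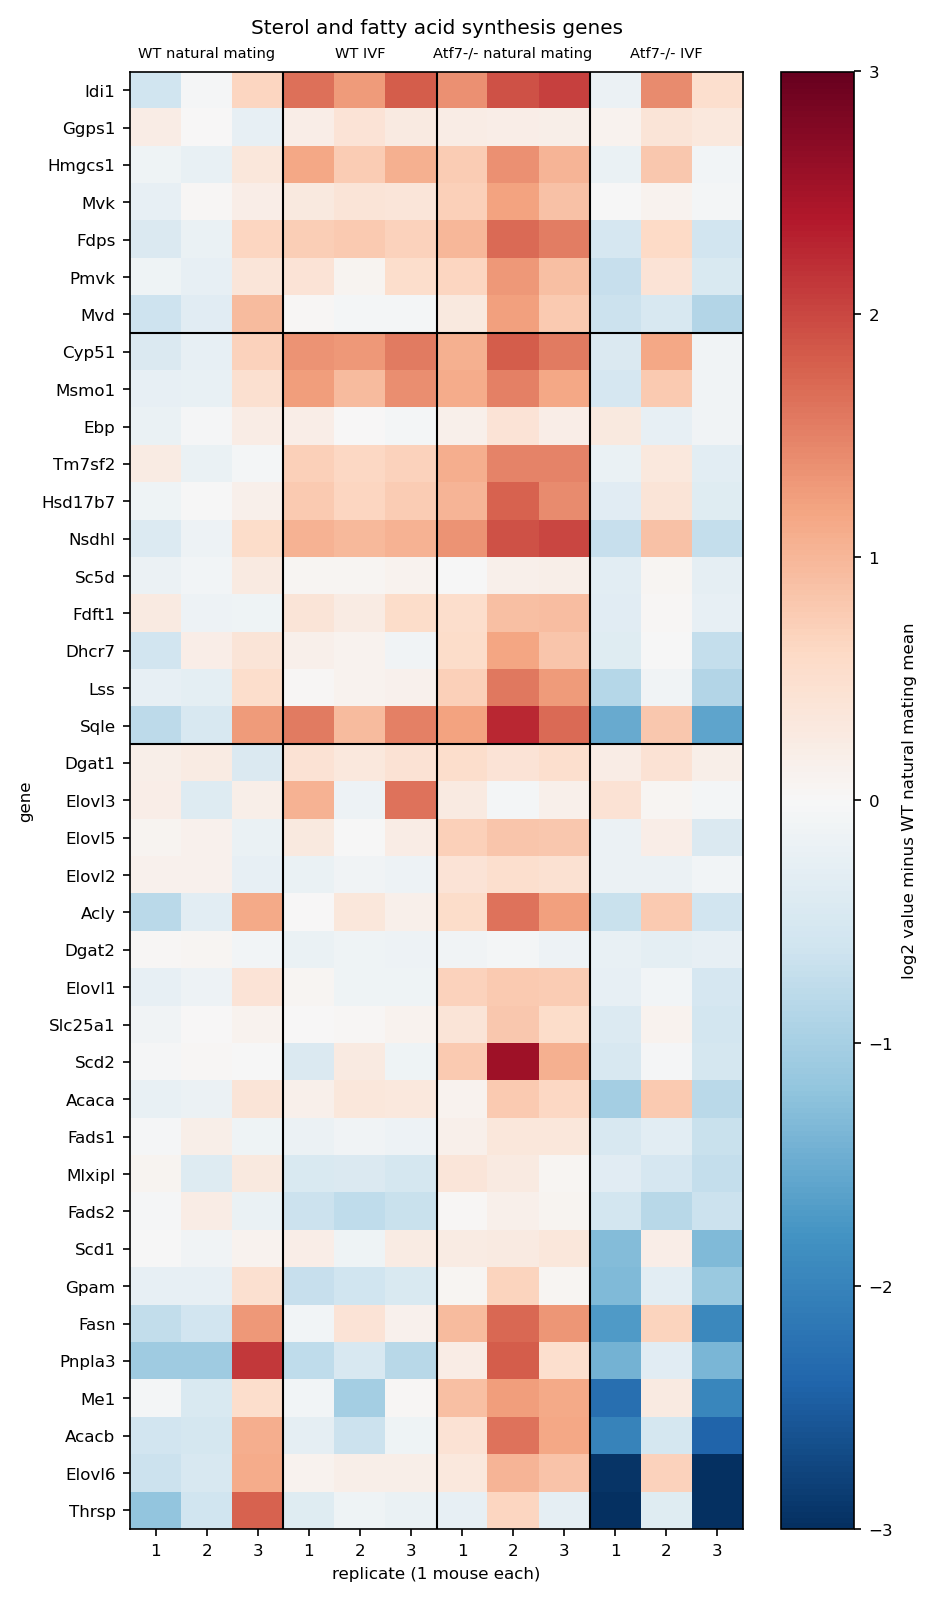
Log2 value minus the WT natural mating mean for genes of the mevalonate pathway (top), from squalene to cholesterol (middle) and of fatty acid synthesis (bottom), 1 column per array. Colours are capped at 3 units either way. WT natural mating replicate 3 and Atf7-/- IVF replicate 2 are redder than the other arrays of their groups in most rows, and Atf7-/- natural mating is red in most of the upper rows.

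Of 16 genes of gluconeogenesis and glycogen, 1 rose and 3 fell, against 1.9% and 1.24% of all probe sets. The calls of the 3 that fell were all kept without each of the 6 arrays. Ppp1r3g, a glycogen-targeting subunit of protein phosphatase 1, fell by 1.54 (SE 0.22, adjusted p = 0.0045), Gys2 by 1.08 as given above, and Pck1, the gluconeogenic enzyme PEPCK, by 1.01 (SE 0.18, adjusted p = 0.0105). Ppp1r3c, a related subunit, read 8.84, 8.05 and 8.58 against 9.45, 10.14 and 9.79 and rose by 1.3 (SE 0.32, adjusted p = 0.0404). The call of Ppp1r3c ended on leaving out any 1 of 8 arrays (adjusted p from 0.0551 to 0.141) and with the replicate number as a block (adjusted p = 0.0658). Alas1, which catalyses the first and limiting step toward heme, read 11.38, 11.56 and 12.35 in WT natural mating and 9.86 to 10.12 in Atf7-/- IVF. Every mutant array was lower, by 1.77 in the mean (SE 0.30, adjusted p = 0.00883), and Alas1 was the 1 called gene of 8 in heme synthesis.

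Bile acid genes showed a single call. Hsd3b7, an enzyme of bile acid synthesis, read 9.43, 9.38 and 9.97 in WT natural mating and 10.69, 10.60 and 10.70 in Atf7-/- IVF and rose by 1.07 (SE 0.16, adjusted p = 0.00538), 1.80 less than the sum of the single factors. Cyp7a1, the rate-limiting enzyme, read 11.28, 11.76 and 11.72 against 11.80, 10.29 and 12.08, with the groups overlapping and a difference of -0.20 (SE 0.57, adjusted p = 0.89). It had -2.25 with IVF in WT and -1.38 with ATF7 loss, and the combined value lay 3.43 above their sum, a called departure. Of 16 measured bile acid genes, 1 rose and 0 fell.

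Genes of oxidant defence were lower where called, and most were not called. Of 21 genes of the NRF2 pathway and glutathione cycle, 0 rose and 4 fell, against 1.9% and 1.24% of all probe sets. All 4 were kept without each of the 6 arrays. Beside Gstt2 they were Gstp1, a glutathione S-transferase also biased to males, with -1.3 (SE 0.22, adjusted p = 0.00906), Hmox1, the heme oxygenase, with -0.99 (SE 0.14, adjusted p = 0.00395), and Oplah, the 5-oxoprolinase of the glutathione cycle, with -0.81 (SE 0.13, adjusted p = 0.00672). Hmox1 read 8.87, 8.98 and 9.22 in WT natural mating and 8.37, 7.90 and 7.83 in Atf7-/- IVF, and the groups were apart. The list median was -0.16, and 6 of the 21 differences were positive. Of 22 genes of ATF4 and the unfolded protein response, 0 rose and 2 fell, Herpud1, a gene of protein disposal from the endoplasmic reticulum, at -1.04 (SE 0.16, adjusted p = 0.00623), and Atf3.

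Of 17 CAR, PXR and AHR targets, 3 rose, all of the Cyp2c family, and 0 fell, against 1.9% and 1.24% of all probe sets. The list median was -0.015, and 8 of the 17 differences were positive. Cyp2c55 rose by 1.77 (SE 0.43, adjusted p = 0.0372), Cyp2c50 by 1.14 (SE 0.29, adjusted p = 0.0472) and Cyp2c29 by 0.78 (SE 0.14, adjusted p = 0.0113), and the last was kept without each array. The call of Cyp2c55 ended on leaving out any 1 of 8 arrays (adjusted p from 0.0514 to 0.106) and that of Cyp2c50 on leaving out any 1 of 10 (adjusted p from 0.0585 to 0.143). Of 12 male-biased liver genes, 1 rose and 3 fell, among them Mup3, a major urinary protein gene, at -1.29 (SE 0.28, adjusted p = 0.0236). Mup3 was not called without WT natural mating replicate 3 or Atf7-/- IVF replicate 1 or 3 (adjusted p from 0.052 to 0.0801). The mean over these genes was 9.74 in WT natural mating replicate 3, 7.90 and 8.27 in the other 2 WT mice and 7.62 to 7.93 in Atf7-/- IVF, and the list median went from -0.89 to -0.19 without that WT array. Of 11 female-biased genes, 2 rose (Cyp3a16 and Hao2, at 1.08, SE 0.21) and 1 fell (Acot3). The call of Hao2 ended without Atf7-/- IVF replicate 2 or 3 (adjusted p from 0.0522 to 0.0684).

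Nt5e, the surface enzyme that makes adenosine from AMP, read 8.24, 8.17 and 7.73 in WT natural mating and 9.41, 9.69 and 9.79 in Atf7-/- IVF. The groups were more than 1 unit apart, with a rise of 1.59 (SE 0.16, adjusted p = 0.000927) or 3-fold. The differences from WT natural mating were 1.67 in WT IVF and 1.40 in Atf7-/- natural mating, and the combined value lay 1.49 below their sum. Pnp, the purine nucleoside phosphorylase, rose by 0.68 (SE 0.12, adjusted p = 0.0107), and without Atf7-/- IVF replicate 3 its rise was 0.56. Of 20 genes of purine salvage, breakdown and adenosine these 2 rose and 0 fell, and the median was 0.06. Of 18 pyrimidine genes 1 fell, the uridine phosphorylase gene Upp2. It read 11.72, 11.72 and 11.81 against 10.89, 9.55 and 10.96 and had -1.28 (SE 0.30, adjusted p = 0.0308), a call that ended without any WT natural mating array (adjusted p from 0.0634 to 0.0833).

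Among growth and imprinted genes, Stat5b, a transducer of growth hormone signals, rose by 0.84 (SE 0.11, adjusted p = 0.00322) and Igf1 had 0.35 (SE 0.10, adjusted p = 0.0736). Of 29 imprinted genes 3 rose and 0 fell, against 1.9% and 1.24% of all probe sets. Mest, a paternally expressed gene, read 6.83, 7.06 and 6.88 in WT natural mating and 8.07, 7.70 and 8.0 in Atf7-/- IVF and rose by 1.0 (SE 0.24, adjusted p = 0.0358). Igf2, the fetal growth factor gene, read 6.59, 6.60 and 6.27 against 7.45, 7.32 and 6.96 and rose by 0.76 (SE 0.14, adjusted p = 0.0153). Ndn rose by 0.87 (SE 0.15, adjusted p = 0.00847). The groups were apart in all 3, but the call of Mest ended whichever of the 6 arrays was left out (adjusted p from 0.0675 to 0.108) and with the replicate block (adjusted p = 0.0577), and that of Igf2 without Atf7-/- IVF replicate 2 (adjusted p = 0.0583). Of 24 genes of H3K9 methylation and heterochromatin 1 rose, Cbx3, a heterochromatin protein 1 gene, at 1.05 (SE 0.14, adjusted p = 0.00288), while the 5 other Cbx3 probe sets had 0.36 to 0.93.

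Some acute-phase, complement and coagulation genes rose, where 1.9% of all probe sets were called higher. Apcs, the serum amyloid P component, read 10.29, 9.69 and 10.11 in WT natural mating and 11.19, 11.01 and 11.40 in Atf7-/- IVF and rose by 1.17 (SE 0.16, adjusted p = 0.00318), the 1 called gene of 24 acute-phase proteins. Of 26 complement genes 2 rose, Cd59a, an inhibitor of the membrane attack complex, by 1.03 (SE 0.13, adjusted p = 0.00208) and the lectin gene Mbl1 by 0.85 (SE 0.19, adjusted p = 0.0267). Of 29 coagulation genes 3 rose, the anticoagulant Pros1 by 0.86 (SE 0.09, adjusted p = 0.00107), and F9 and F13b by 0.69 each (adjusted p = 0.0106 and 0.0141). The calls of Mbl1 and F13b ended without Atf7-/- IVF replicate 2 or 3 or WT natural mating replicate 2, that of Mbl1 also without WT natural mating replicate 1 (0.0507 to 0.0969 in adjusted p), and that of F9 without Atf7-/- IVF replicate 3 (rise of 0.58).

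The interferon and MHC lists had medians below 0, with few calls, where 1.9% of all probe sets were called higher and 1.24% lower. Of 22 interferon-stimulated genes 0 rose and 3 fell, Oas2 by 0.73 (SE 0.16, adjusted p = 0.0245), Irf7 by 0.66 (SE 0.16, adjusted p = 0.039) and Usp18 by 0.61 (SE 0.14, adjusted p = 0.0288), with a list median of -0.42. Of 16 genes of MHC and antigen presentation 1 fell, the liver class I gene H2-Q10, which read 11.01, 11.05 and 10.99 against 10.26, 10.41 and 10.14 (-0.75, SE 0.09, adjusted p = 0.00208). Its groups were well apart. The median of the MHC list was -0.69, and Cd74, the class II invariant chain, had -1.49 (adjusted p = 0.141). The mean of the MHC list was 8.38, 8.86 and 9.70 in the WT natural mating mice and 8.16 to 8.35 in Atf7-/- IVF, and that of the interferon list was 7.61, 8.02 and 8.41 against 7.65 to 7.71. Without WT natural mating replicate 3 the medians were -0.36 and -0.20. Irf7 was not called on leaving out any 1 of 8 arrays, and Oas2 and Usp18 not without Atf7-/- IVF replicate 2 or 3 or WT natural mating replicate 2 (0.0512 to 0.126 in adjusted p over the 3 genes), Oas2 also not without WT natural mating replicate 3.

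Markers of other liver cells were followed as whole lists, and their part in the results above was not tested. Of all probe sets 1.9% were called higher and 1.24% lower, and apart from the stellate cell list no marker list held more than 1 call. Of 14 stellate cell and fibroblast markers 2 rose and 13 had a positive difference, with a median of 0.395 and array means that ran from 8.17 to 8.56 for WT natural mating and from 8.86 to 8.88 for Atf7-/- IVF. Acta2, the smooth muscle actin of activated stellate cells, read 7.05, 7.15 and 7.55 against 8.42, 8.91 and 8.43 and rose by 1.34 (SE 0.24, adjusted p = 0.0124), and Reln rose by 0.72 (SE 0.17, adjusted p = 0.0337). The call of Acta2 ended without Atf7-/- IVF replicate 2 (adjusted p = 0.0523) and that of Reln when any 1 of 6 arrays was left out (adjusted p up to 0.121). Of 8 cholangiocyte markers the keratin gene Krt19 rose by 0.76 (SE 0.09, adjusted p = 0.00155), of 11 sinusoidal endothelial markers Clec4g rose by 0.64 (SE 0.17, adjusted p = 0.0496), and its second probe set had -0.18. Of 8 B and plasma cell markers Ms4a1 rose by 0.97 (SE 0.19, adjusted p = 0.0172). Of 12 Kupffer cell and macrophage markers Cd5l fell by 0.61 (SE 0.15, adjusted p = 0.0452), with array means that ran from 8.64 to 9.27 for WT natural mating and from 8.54 to 8.82 for Atf7-/- IVF. The calls of Clec4g and Cd5l each ended on leaving out any 1 of 11 arrays (adjusted p up to 0.146), and that of Ms4a1 without WT natural mating replicate 2 or Atf7-/- IVF replicate 2 or 3 (adjusted p from 0.0507 to 0.0664). Hepatocyte, T and NK cell, neutrophil, erythroid, pancreatic, muscle and adipocyte markers had 0 calls.

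Genes of the cell cycle had 0 calls of 33 and a median of 0.33. Their mean was 7.53 in Atf7-/- IVF replicate 2, 6.22 and 6.25 in the other 2 mutant mice and 6.06 to 6.62 in WT natural mating, and without that array the median was -0.07. Of 26 DNA replication genes 1 rose, the clamp loader subunit Rfc4, which read 5.81, 6.65 and 6.27 against 6.89, 8.67 and 7.42 (1.42, SE 0.36, adjusted p = 0.045), and it was not called on leaving out any 1 of 11 arrays (adjusted p from 0.0617 to 0.12).

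Calls in housekeeping machinery are to be read against the 1.9% of all probe sets called higher and the 1.24% called lower. Of 73 nuclear genes of oxidative phosphorylation 6 rose and 0 fell, with a median of 0.03. Uqcrb, a complex III subunit, rose by 0.78 (SE 0.14, adjusted p = 0.0119) and had 0.42 and 1.03 at its other probe sets, and the complex I subunits Ndufb9, Ndufs4 and Ndufb11 by 0.78, 0.73 and 0.64 (SE 0.11, 0.12 and 0.09), the rise of Ndufb11 being 0.56 to 0.60 without WT natural mating replicate 2 or Atf7-/- IVF replicate 2. Of 37 proteasome genes 4 rose and 0 fell, with a median of 0.055, led by Psmd14, a deubiquitinase of the regulatory particle, at 1.01 (SE 0.12, adjusted p = 0.00204). Psmd14 read 8.78, 8.88 and 8.80 against 9.62, 10.08 and 9.79, and the groups were apart. Of 54 ribosomal protein genes 3 rose and 1 fell, and because these genes have many pseudogene copies their probe sets are uncertain. Rpl38 rose by 0.86 (SE 0.10, adjusted p = 0.0016) at one probe set and had 0.10 to 1.13 at the 3 others, and Rpl24 fell by 0.75 (SE 0.10, adjusted p = 0.00354) and had -0.56 and -0.31 at the others. Of 51 spliceosome genes 1 rose, Snrpb2 by 0.87 (SE 0.14, adjusted p = 0.00785), a count near the share of all probe sets.

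Of 7 structural and nuclear noncoding RNAs 0 rose and 3 fell. Vaultrc5, a vault RNA, read 10.61, 11.34 and 11.25 in WT natural mating and 9.23, 8.83 and 9.08 in Atf7-/- IVF and fell by 2.02 (SE 0.20, adjusted p = 0.000769). Its WT IVF values were 9.03 to 9.15 and its Atf7-/- natural mating values 7.42 to 7.97, so the combined value lay above that of ATF7 loss alone by 1.31 and above the sum of single factors by 3.27. Rmrp, the RNA of RNase MRP, and Malat1, a nuclear RNA, fell by 0.72 (SE 0.16) and 0.61 (SE 0.15), with adjusted p = 0.0245 and 0.036. Both calls ended without Atf7-/- IVF replicate 2 or 3 and without WT natural mating replicate 2, that of Rmrp also without Atf7-/- IVF replicate 1 and that of Malat1 on leaving out any 1 of 9 arrays (adjusted p from 0.0512 to 0.111 over both).

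**Figure D5:**
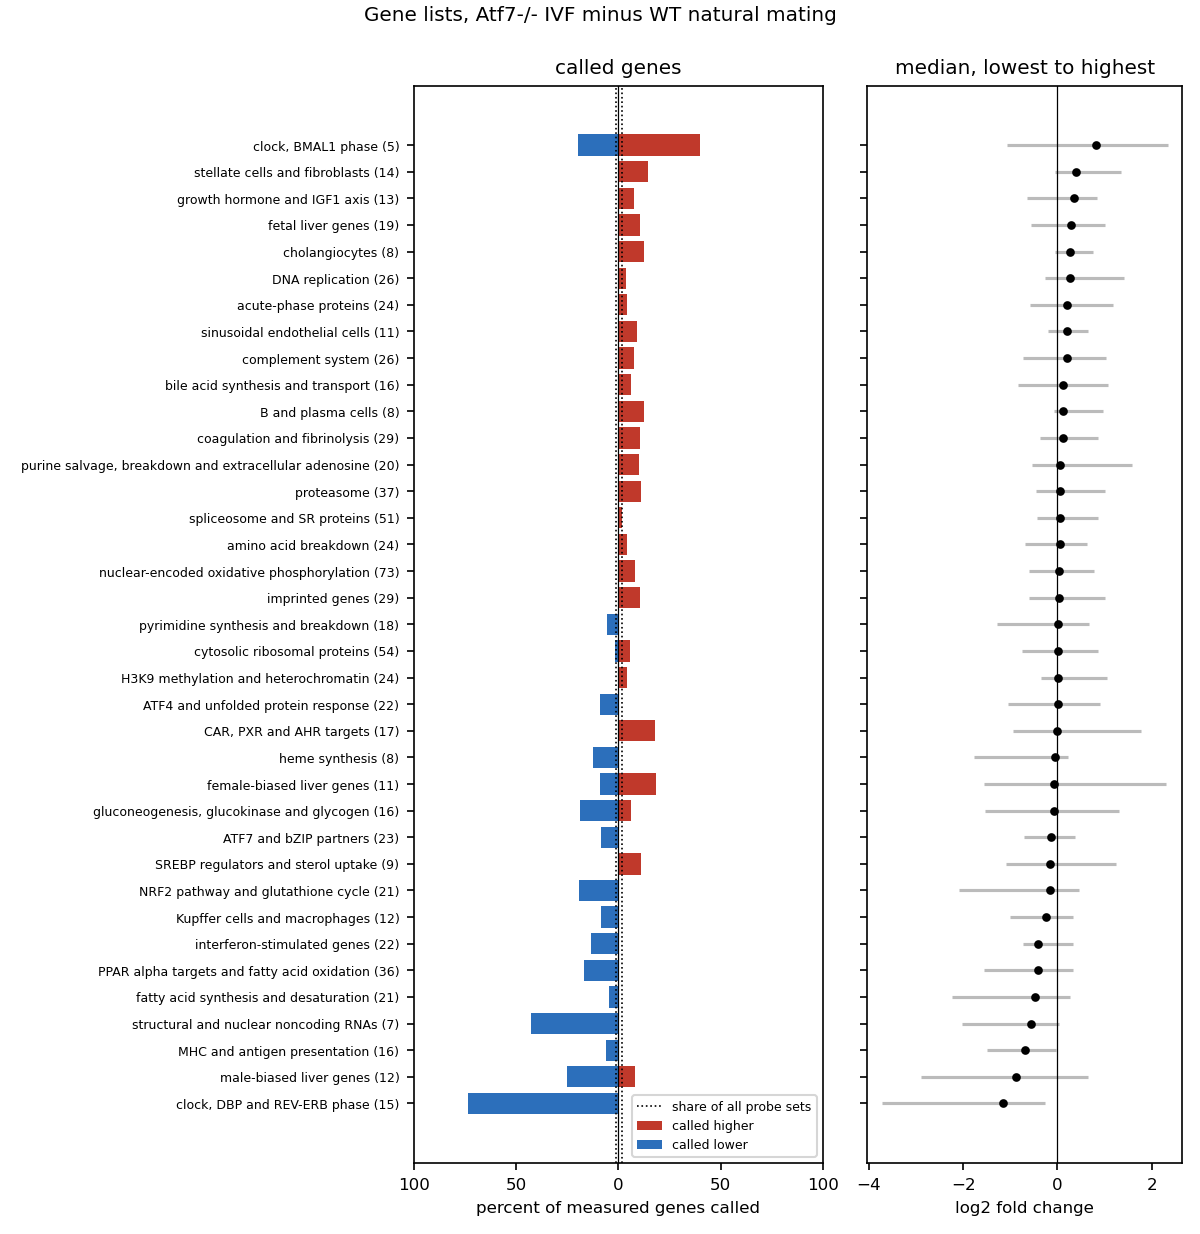
Gene lists with at least 1 called gene in Atf7-/- IVF minus WT natural mating, ordered by median, with the number of measured genes in parentheses. Bars (left) are the percent of measured genes called higher (red) and lower (blue), beside the 1.9% and 1.24% of all probe sets (dotted), and points and lines (right) are the median and the range of log2 fold changes. The Dbp-phase clock list has 11 of 15 genes called lower.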

How the data were processed

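RNA from 12 mouse livers had been hybridised to Affymetrix Mouse Gene 1.0 ST arrays, 1 liver per array. The authors deposited log2 values made by RMA, which corrects background, normalizes quantiles and summarises probes, and the submitters' processing notes name affy and limma, with versions not given in the sources used here. The deposited values were used as they were. Group means were fitted to all 12 arrays with limma 3.58.1 (R 4.3.3) with 8 residual degrees of freedom. Benjamini-Hochberg adjustment ran over 34760 probe sets. Figures and counts were made with Python 3.11.15. The fit was tested on simulated data. Precision is limited by the number of arrays, and the median SE of a difference was 0.132. Gene symbols came from the platform annotation: 21640 probe sets had 1 symbol, 1321 several and 11799 none, and 21553 of the single symbols were in the RefSeq table. Promoter windows came from RefSeq on GRCm38.p6.

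The named genes were both Atf7 probe sets, the 12 largest rises and 12 largest falls among called probe sets with 1 symbol and groups that did not overlap (predicted genes and clone names left out), the 5 largest called departures from the sum in each direction, and up to 5 called genes of each list. Genes singled out in the text beyond these were chosen after their values were seen. The members and lists were chosen with earlier results of these data known. The alternatives tried were a replicate block, trended variances, array weights, centring, quantile normalization, filters, other thresholds, the 6 arrays alone, and leaving out each array. Between Atf7-/- IVF and WT natural mating, same-numbered replicates did not deviate together (correlations of -0.104, 0.015 and -0.085), so the numbers were not taken to pair these mice. The other pairs of groups, WT IVF with Atf7-/- IVF among them, were not examined in this way. For those, shared replicate effects were allowed for only in the fit with a replicate block.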

Additional observations from a re-analysis of the deposited data

Results flagged for a closer look

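Named genes are listed here when the combined difference departed from the sum of the 2 single-factor differences, that is, when the log2 change with IVF differed between Atf7-/- and WT mice by limma's interaction test. All values are that departure on the log2 scale, and they rest on all 4 groups, the Atf7-/- natural mating arrays included, and cannot be given without those.

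In sterol and steroid metabolism the departure was -4.79 for Akr1c18, -3.83 for Sqle, -2.95 for Nsdhl, -2.92 for Rdh11, -2.78 for the brighter Idi1 probe set and -1.01 for Srebf2. The other Idi1 probe set had -1.51 (limma adjusted p = 0.105), which was not called. Akr1c19, a relative of Akr1c18, had 2.15. In bile acid synthesis Hsd3b7 had -1.80 and Cyp7a1 had 3.43. Fabp5 had -3.55, Mfsd2a -2.05 and Pex11a -1.03.

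Among surface proteins and transporters the departure was -2.41 for Cd209f, -1.82 for Slc44a1, -1.62 for Adgrf1, -1.49 for Nt5e, -1.10 for Clec4g and 2.22 for Slc15a2, a peptide transporter. In immune genes it was -2.31 for Ifi202b, -0.91 for Usp18, -0.86 for Cd59a, 0.89 for Oas2 and 1.18 for Cd5l. Ifi202b lay below the level of the pancreas and muscle markers in all groups. Upp2 had 1.76.

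In the clock the departure was -0.93 for Clock, -0.81 for Per1 and 1.83 for Per3. Mest had -1.42 and Stat5b had -0.77. Mitochondrial subunits had -1.42 (Ndufs8), -1.30 (Atp5md), -0.89 (Ndufb9), -0.66 (Ndufs4) and 2.03 (Atp5l). Proteasome subunits had -1.06 (Psmb5), -0.86 (Psmb3) and -0.80 (Psmd14). Other probe sets that were not called had 0.01 for Clec4g, 0.06 for Atp5l, -0.35 and -0.61 for Atp5md and 0.11 for Rpl24. Rpl24 had 1.47 at the probe set named, and the noncoding RNAs Rmrp, Malat1 and Vaultrc5 had 1.60, 1.93 and 3.27.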

How the results depend on the processing

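Against WT natural mating, 661 probe sets were higher and 431 lower. The counts were 121 and 94 with the 6 arrays alone, 253 and 153 with adjusted p at 0.01 or less, 149 and 152 with log2 fold changes of 1 or more in size, and 1179 and 831 with no fold threshold. With 1 probe set per symbol 255 were lower. Centring on array medians moved the split to 773 and 353. Leaving out each array in turn gave 352 to 917 higher and 240 to 610 lower. Against WT IVF the count was 2, 3 without the Atf7-/- natural mating arrays, 1 (Atf7) among the brighter probe sets only, and 2 to 6 with an array left out. It was 3 among probe sets with 1 symbol, with G530011O06Rik added. With 1 probe set per symbol, the brightest, it was 2, G530011O06Rik and Ifi202b, and Atf7 was not called. Against Atf7-/- natural mating the count of 2356 became 1528 for probe sets with 1 symbol, 1332 with 1 per symbol, 1561 at 0.01, 706 at a fold of 1, 4498 with no fold threshold, and 1727 to 2621 with an array left out. The interaction count of 2148 became 1410 with 1 per symbol, 750 at 0.01, 986 at a fold of 1, and 1443 to 2482 with an array left out. The replicate block gave 630 higher and 428 lower, 3 against WT IVF, 2345 against Atf7-/- natural mating and 2020 for the interaction, and it ended 6 named calls (Cyp2c38, Mest, Ppp1r3c, Psma3, Clec4g and Malat1). Of 2635 combinations of a named gene and a setting, 2206 kept direction and side of the threshold, 414 lost the call, 6 gained one, 9 moved and 0 reversed. Without the 3 Atf7-/- natural mating arrays, an alternative chosen after seeing the data, the counts were 469 and 311 and the calls of Cyp3a16, Slc34a2, Cyp2c55, Cyp4a12a, Cyp2c38, Cyp2c50, Cbs, Mbl1, Rpl9, Rfc4, Irf7, Cd5l, Mup3, Ugt2b1, Ndufs8, Acaa1a, Psmb5, Psma3, Upp2, Clec4g, Reln, Rmrp and Malat1 ended. The causes were not tested.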

Other observations

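Several gene groups had few or no calls between Atf7-/- IVF and WT natural mating liver by limma. Of 9 urea cycle genes, 12 of de novo purine synthesis, 13 heat shock chaperones and 13 DNA methylation genes 0 were called, with medians of 0.022, -0.017, 0.037 and 0.012. Of 24 genes of amino acid breakdown 1 rose, Cbs, the cystathionine beta-synthase, by 0.60 (SE 0.14, adjusted p = 0.0277 by limma), which was not called when WT natural mating replicate 1 or 2 or Atf7-/- IVF replicate 1 or 3 was left out (adjusted p from 0.0616 to 0.0999). Of 19 fetal liver genes 2 rose, Mest and Igf2, with a list median of 0.278.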
